A study of Schizosaccharomyces pombe with 4 samples.

Results

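The nuclear rRNA genes of *Schizosaccharomyces pombe* (fission yeast) were followed in native elongating transcript sequencing (NET-seq) libraries of wild-type cells. NET-seq sequences the 3′ ends of RNA held by RNA polymerase II (RNAPII). The genes were taken as the annotated units of type rRNA gene outside the mitochondrial genome, 47 of 9111 units in the table. The identifier rule used to leave out mitochondrial genes found 49 units, and 2 of them, SPRRNA.01 and SPRRNA.02, lie on the mitochondrial chromosome and were set apart. By the product names of RefSeq the 47 units are 36 copies of 5S, 3 of 5.8S, 5 of 18S and 3 of 28S. Units under 200 nt, 33 in number, were separated from 14 of 200 nt or longer, and the length did not sort the products cleanly. The short units hold the 3 copies of 5.8S beside 30 of 5S, and 6 units of 200 nt or longer are 5S. Nearest the limit are SPRRNA.07 at 198 nt and SPRRNA.04 at 209 nt, both 5S.

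Strain YAM2492 carries a FLAG tag on the RNAPII subunit Rpb3 (rpb3-flag) and was grown exponentially without treatment. All 4 libraries come from this strain, so the control libraries carry the tag too. RNA that came down with the tagged RNAPII gave 2 IP libraries (nascent RNA), and total RNA of the same 2 cultures gave 2 input libraries. An IP from cells without the tag was not analysed here.

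In eukaryotes 5S rRNA is made by RNA polymerase III (RNAPIII), which is recruited through a promoter inside the gene bound by TFIIIA and ends transcription at a run of T on the coding strand. The 18S, 5.8S and 28S rRNAs are cut from one long precursor made by RNA polymerase I (RNAPI) from tandem repeats (rDNA), which in fission yeast lie at both ends of chromosome III. None of these genes is a usual template of RNAPII. In fission yeast the 5S genes do not sit in the rDNA repeat but are scattered along the chromosomes.

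The 36 copies of 5S lay on all nuclear chromosomes, 12 on I, 16 on II and 8 on III. Their annotated units ran from 80 to 440 nt with a median of 150, and 7 units were exactly 119 nt, the length of the 5S body. A whole 119-nt body was found in 34 units, and 23 of these had the same sequence. In the other 11 copies 7 had 1 change from that consensus, 2 had 2 and 2 had 3, at 12 positions in all. The consensus is printed with the positions that differ in any copy in capitals, since these positions are all that sets the bodies apart.
5S consensus body: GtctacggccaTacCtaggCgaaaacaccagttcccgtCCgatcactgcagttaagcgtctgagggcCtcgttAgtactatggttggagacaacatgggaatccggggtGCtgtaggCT
With positions counted from 1 at the first base of the body, SPRRNA.18 carries T119C, SPRRNA.53 C68T and SPRRNA.35 C40T. SPRRNA.11 carries C20T and C118T, SPRRNA.15 carries C15G and A74G, SPRRNA.12 carries G1A, C39T and C118T, and SPRRNA.37 carries G110T, C111T and C118T. SPRRNA.04 and SPRRNA.05 share C20T, and SPRRNA.30 and SPRRNA.40 share T12C. The remaining units, SPRRNA.41 and SPRRNA.54, are diverged, with 95 of 112 and 85 of 104 aligned positions identical to the consensus.

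Beyond the last base of the body the copies part, and only reads that run into the flank, or over a changed base, can be placed on 1 copy. The 30 bases after the body (RefSeq sequence, build ASM294v3, written 5′ to 3′ on the strand of the gene) are shown for copies with many reads, for copies with a late T run and for copies with few reads. Capitals mark the first run of 4 or more T, which SPRRNA.38 lacks here.
SPRRNA.18 (chrI:3891633-3891662, minus strand): tcTTTTTcggaacattatttttaatatgta
SPRRNA.11 (chrI:456646-456675, plus strand): ccTTTTattttttttctcattttttagctc
SPRRNA.28 (chrII:464646-464675, plus strand): tccaTTTTTTTattcgtgaaaaaacaattt
SPRRNA.20 (chrI:4240820-4240849, minus strand): tcttgcTTTTTTTgctagaaataatacatt
SPRRNA.37 (chrII:4161589-4161618, minus strand): ccttctttattattgctgtttggTTTTTac
SPRRNA.38 (chrII:4210351-4210380, minus strand): ccttctttattattgctatttaattactac
SPRRNA.07 (chrIII:2308136-2308165, minus strand): ccttctcttattattgctaTTTTatttttt
SPRRNA.32 (chrII:1406704-1406733, plus strand): tcctttcattactgtattcaTTTTTTTTac
SPRRNA.31 (chrII:783378-783407, plus strand): tccTTTTattctttttgctttttgtttgag
SPRRNA.03 (chrIII:1370004-1370033, minus strand): tccTTTTattctttttgctttttctgcttt
SPRRNA.04 (chrIII:1474229-1474258, minus strand): tccTTTTattctttttgctttttgttgtat
SPRRNA.06 (chrIII:1702243-1702272, plus strand): tccTTTTattctttttgctttttgttttga
The last 4 trailers are alike almost to their ends. A 50-nt read that starts in the body of SPRRNA.03 must reach base 24 of its trailer to match 1 place exactly, and base 27 or 28 in the others.

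A run of TTTT began within 15 nt of the body in 30 of the 34 whole copies (88.2%). In the same window after the last base of 12602 RefSeq gene records it was present in 17.1%, or in 31.2% when either strand was counted. The letters TATA, which read the same on both strands, stood 40 to 21 bases before the body in 25 of 34 copies (73.5%), against 17.6% of genes. The upstream stretches of the most read copy and of SPRRNA.37 are given as examples, with TATA in capitals.
SPRRNA.18, 40 bases before the body (chrI:3891782-3891821, minus strand): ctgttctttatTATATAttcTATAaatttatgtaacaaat
SPRRNA.37, 40 bases before the body (chrII:4161738-4161777, minus strand): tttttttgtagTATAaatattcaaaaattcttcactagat
These matches describe the letters in the windows and are not mapped sites.

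Depth was similar within a group. The implied totals of uniquely mapped reads were 7100000 and 7117477 in IP and 9082385 and 9823089 in input, so 1 read stood for 0.102 to 0.141 RPM (reads per 1e+06 reads of the library). Nuclear tRNA units took 90.1% ± 2.91 (SD, n = 2) of the input total against 4.77% ± 0.123 (SD, n = 2) of the IP total, and snRNA units took 34.0% ± 0.692 (SD, n = 2) of IP. A protein-coding gene had a median of 369 and 338 reads in IP but 17 and 35 in input. Each value is a share of its library total, so the part that tRNA takes of input bears on every IP to input comparison here.

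Few reads were left on the 5S genes. The 36 units together had 3753 reads in IP replicate 1 and 3025 in replicate 2, against 2096 and 2829 in the inputs, or 477 ± 73.2 RPM in IP and 259 ± 40.5 RPM in input (SD, n = 2). As a share of the library this was 0.0529% in IP replicate 1 (95% Wilson interval 0.0512 to 0.0546) and 0.0425% in IP replicate 2 (0.0410 to 0.0440). The input shares were 0.0231% in replicate 1 (0.0221 to 0.0241) and 0.0288% in replicate 2 (0.0278 to 0.0299). Both IP libraries lay above both input libraries. The intervals cover counting error only and leave out the spread between cultures. The methods describe no molecular identifiers, so repeated copies of 1 molecule could make them too narrow. Only reads that map to 1 place were kept, so these shares do not give the amount of 5S rRNA in the cell. Each library is a share of reads from a whole culture, in which fewer cells and less RNA per cell cannot be told apart.

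The reads were spread very unevenly over the copies. The median 5S unit had 17 and 18.5 reads in IP against 5 and 3 in input, while the counts of the most read unit were 1113 and 879 against 805 and 1209. That unit, SPRRNA.18 (chrI:3891662-3891784), held 29.7% and 29.1% of the 5S reads of the IP libraries and 38.4% and 42.7% of those of the input libraries. The 6 units with most reads held 77.9% and 73.6% in IP and 83.0% and 86.1% in input. At the other end, 5 units had at most 3 reads in every library. SPRRNA.06 had 0 reads in all 4 libraries, which allows up to 0.305 to 0.423 RPM per library (3 reads).

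**Figure D1:**
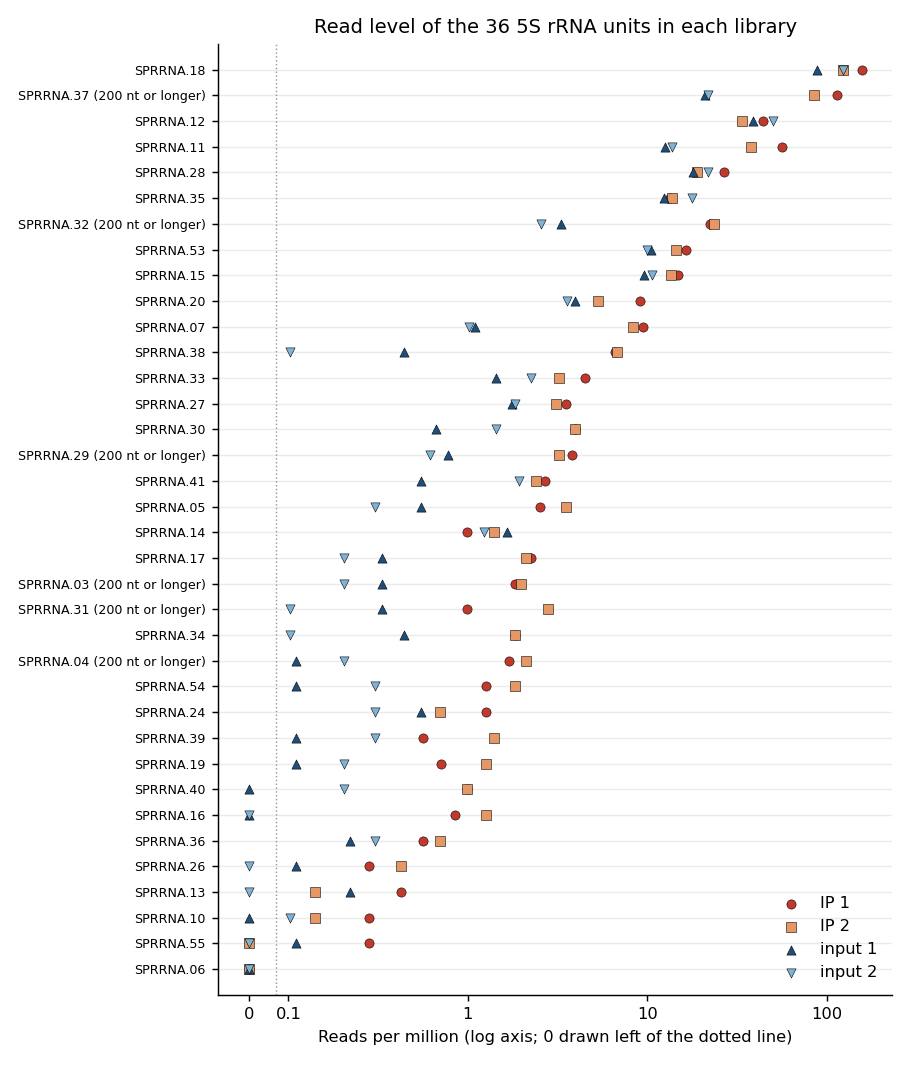
RPM (log axis) of each of the 36 5S units in the 2 IP and 2 input libraries, ordered by mean level; a level of 0 is drawn left of the dotted line. SPRRNA.18 stands at the top in both IP and input, input levels fall off faster than IP levels down the list, and SPRRNA.06 is at 0 in every library.

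The order of the copies followed how soon their sequence becomes unique. For each whole copy, the number of bases past the body was found that a 50-nt read crossing its 3′ end must reach before it has no second exact match in the genome. Reads that lie inside the body were counted apart. It ran from 0 to 28 bases. Of 70 possible 50-nt windows inside the body, 61 were unique in SPRRNA.15, 50 in SPRRNA.53, 40 in SPRRNA.35, 39 in SPRRNA.12, 10 in SPRRNA.37 and 1 in SPRRNA.18. The other 28 copies had none, and with up to 2 mismatches allowed to the second site no copy had any.

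The 10 copies that needed 0 to 5 bases had a median of 19.1 RPM in IP and 11.7 RPM in input and together took 82.6% of the IP and 89.9% of the input level. The 8 copies that needed 6 to 9 bases had medians of 3.73 and 0.559 RPM. The 16 copies that needed 12 to 28 bases had medians of 1.02 and 0.157 RPM. These class limits were set after the values had been seen. Over the 34 copies Spearman's rho of the distance with the level was −0.68 in IP and −0.75 in input. Pearson's r with the log level was −0.65 and −0.69. Without the 4 copies that lie on the strand of another unit, rho was −0.70 and −0.82 (30 copies), and among the 28 copies with no unique window in the body it was −0.56 and −0.71. The same distance on the 5′ side gave rho of −0.16 in IP and −0.16 in input. The count of read positions touching the unit that match 1 place exactly gave 0.35 and 0.36. With up to 2 mismatches allowed to a second site, that count gave 0.18 and 0.19 and the 3′ distance gave −0.64 and −0.68. The annotated units also differ in how much flank they hold, up to 200 nt before and 121 nt after the body (SPRRNA.32). Reads of that flank count in the level, and its part in these coefficients was not tested. The copies share their libraries and nearly all of their sequence, so these coefficients are descriptions.

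**Figure D2:**
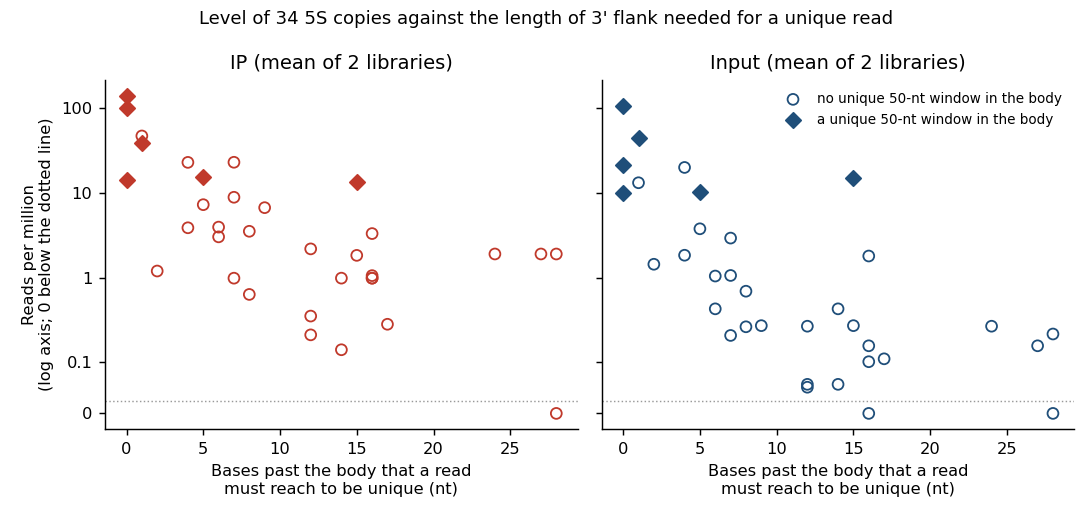
Mean RPM (log axis) of 34 whole 5S copies in IP (left) and input (right) against the number of bases past the body that a 50-nt read crossing its 3′ end must reach to match 1 place exactly. Filled diamonds are the 6 copies with a unique window inside the body. Levels fall with the distance in both panels, with rho of −0.68 and −0.75, and 3 copies that need 24 to 28 bases still had 1.90 RPM in IP. The units of these copies, SPRRNA.31, SPRRNA.03 and SPRRNA.04, run 121, 60 and 40 nt past the body, so reads of the flank count in them.

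SPRRNA.14 and SPRRNA.35 did not follow this order when the distance was taken by exact match. SPRRNA.35 needed 15 bases, yet had 13.6 RPM in IP and 15.1 RPM in input. It holds 40 windows inside the body that are unique by exact match, and 0 with 2 mismatches allowed. It also lies on the strand of SPBC24C6.03, whose reads cannot be told apart from its own. SPRRNA.14 (chrI:3165354-3165546) needed 2 bases, yet had 7 and 10 reads in IP against 15 and 12 in input. With up to 2 mismatches allowed to a second site SPRRNA.14 needed 15 bases. On that measure the copies ran from 5 bases (SPRRNA.37) to 30 (SPRRNA.31), so SPRRNA.14 departs from the order by exact match only. The diverged SPRRNA.41 (chrII:3171566-3171645) and SPRRNA.54 (chrII:3096968-3097078) have no whole body and so no such distance. They were unique at every read position, 129 of 129 and 160 of 160. SPRRNA.41 had 19 and 17 reads in IP against 5 and 19 in input, and SPRRNA.54 had 9 and 13 in IP and 1 and 3 in input. These units were picked out after their values had been seen.

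The design sets nascent against total RNA. Under the library totals of the authors, limma on log2(RPKM + 1) called 24 of 38 nuclear rRNA units with a read higher in IP and 0 lower at an adjusted p of 0.05, where RPKM is RPM per kilobase of unit. Of all 8912 units tested, 92.8% were higher and 0.92% lower. The share among rRNA units was thus below the background. Among short units 17 of 30 were higher, among long units 7 of 8, and among 5S units 22 of 35. At an unadjusted p of 0.05 limma still found 0 lower, while edgeR with TMM found 22 lower and 0 higher. At an adjusted p of 0.05 edgeR with TMM and DESeq2 each called 21 rRNA units lower and 0 higher. edgeR with TMM called 14.7% of all units in each direction. DESeq2 called 10.6% of its 6838 units higher and 16.6% lower.

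The median change of the 35 tested 5S units was 1.71 on the log2 scale, against 2.90 for all units and 3.28 for protein-coding genes, and 33 of the 35 lay under the median of all units. snoRNA units had a median of 1.25 with 32 of 57 higher, tRNA units −0.78 with 23 higher and 73 lower of 161, and snRNA units 6.62 with 5 of 5 higher. In RPM, 29 of 36 5S units had both IP libraries above both input libraries and 0 had both below, where 95.6% of all tested units had both above and 1.31% both below. Of the 22 called higher, 11 had at most 3 reads in both input libraries and at most 20 reads in an IP library. Of the 10 5S units with more than 20 reads in both input libraries, 3 were called higher.

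**Figure D3:**
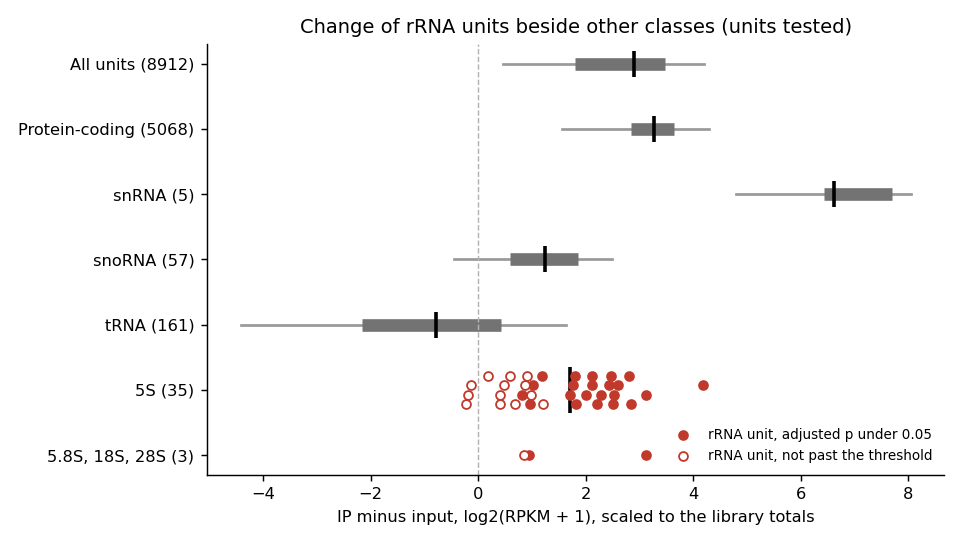
IP minus input on the log2(RPKM + 1) scale, under the library totals of the authors, for units with a read. Grey bars span the middle 50% and thin lines the 5th to 95th percentile of each class, black ticks are medians, and circles are single rRNA units, filled where the adjusted p was under 0.05. The 5S median of 1.71 lies below that of all units (2.90) and above that of tRNA units (−0.78), and the direction against input flips when the libraries are scaled to protein-coding genes.

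The sign of most of these changes rested on the scaling. When libraries were set to equal medians of protein-coding genes, each change fell by a constant of 3.50. The 5S median then became −1.79, with 0 of 35 units higher and 33 lower, where 9.19% of all units were higher and 54.5% lower. Copies with almost no reads are among the 33, since the constant also lowered changes near 0. SPRRNA.55, with 2 and 0 reads in IP against 1 and 0 in input, went from 0.41 to −3.09. Its adjusted p was 4.69e-05 by centred limma and 0.465 by edgeR with TMM. edgeR with TMM on the recovered reads, which scales on the bulk of units, gave a 5S median of −1.89 with 0 higher and 18 lower, where 14.7% of all units were called in each direction and the median of all units was 0.31. Under either scaling the 5S median stood lower in nascent than in total RNA relative to the typical protein-coding gene. SPRRNA.38 stayed above 0 under both, at 0.68 after centring and 0.63 by edgeR, without passing the threshold. SPRRNA.16, with 6 and 9 reads in IP and 0 in input, was at −0.39 and 5.07 (edgeR adjusted p 0.332). SPRRNA.12, SPRRNA.14 and SPRRNA.35 were below 0 under the library totals too. Under the library totals the 5S genes together took a larger share of IP than of input.

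The counts also rested on single IP libraries. Without either IP library limma called fewer short and fewer long rRNA units higher, and it called fewer of all units higher too. The median change of the short units was 1.11 without IP replicate 1 and 1.28 without IP replicate 2, against 1.10 with every library. It was 1.23 without input replicate 1 and 1.38 without input replicate 2.

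SPRRNA.18, the most read 5S copy, had 1113 and 879 reads in IP against 805 and 1209 in input, or 140 ± 23.5 against 106 ± 24.4 RPM (SD, n = 2). In RPM the replicates of the groups met, at 123.5 in IP replicate 2 and 123.1 in input replicate 2. The change was 0.41 (SE 0.343) on the log2 scale with a limma adjusted p of 0.301.

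SPRRNA.12 (chrI:912230-912396) had 313 and 241 reads in IP against 354 and 490 in input, and its change was −0.19 (SE 0.360, adjusted p 0.630). SPRRNA.28 (chrII:464527-464645), which has the consensus body and a unique trailer, had 191 and 134 against 163 and 215 reads and a change of 0.18 (SE 0.375, adjusted p 0.656). SPRRNA.35 (chrII:2322705-2322851) had 95 and 98 against 113 and 175 reads and a change of −0.13 (adjusted p 0.733). None of these copies passed the threshold, and in each the IP and input levels overlapped. Without input replicate 1 SPRRNA.35 was called lower in IP, at −0.39 (adjusted p 0.0216). SPRRNA.35 lies within SPBC24C6.03 on the same strand, and reads of the 2 units cannot be told apart.

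SPRRNA.53 (chrI:1563479-1563593) had 116 and 103 reads in IP against 95 and 98 in input, and a change of 0.58 (adjusted p 0.144). SPRRNA.15 (chrI:3547889-3548049), on the strand of *pan3*, had 105 and 96 against 87 and 104 reads and a change of 0.48 (adjusted p 0.201). SPRRNA.20 (chrI:4240850-4240968), with the consensus body, had 65 and 38 against 36 and 35 reads and a change of 0.88 (adjusted p 0.0989). In these copies both IP levels in RPM lay above both input levels, but the changes did not pass the threshold. SPRRNA.53 and SPRRNA.15 did pass it when either input library was left out, with adjusted p of 0.0221 to 0.0420.

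Of the 10 5S units with more than 20 reads in both input libraries, SPRRNA.37, SPRRNA.11 and SPRRNA.32 rose in IP under the library totals. SPRRNA.37 (chrII:4161556-4161775) had 814 and 606 reads in IP against 190 and 213 in input, or 99.9 ± 20.9 against 21.3 ± 0.540 RPM (SD, n = 2), a change of 2.20 (SE 0.346, adjusted p 0.00441). SPRRNA.11 (chrI:456527-456645) had 398 and 268 against 114 and 135 reads, or 46.9 ± 13.0 against 13.1 ± 0.842 RPM, a change of 1.80 (SE 0.375, adjusted p 0.0108). In both copies the IP libraries lay well above both input libraries. Each was no longer called when either IP library was left out.

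SPRRNA.37 and SPRRNA.18 are the 2 most read 5S copies, and they differed in how IP stood to input. The IP to input ratio in RPM was 5.48 and 3.93 in the replicates of SPRRNA.37 and 1.77 and 1.00 in those of SPRRNA.18, without overlap. With 2 replicates the difference between copies was not tested. In edgeR's scaling both were lower in IP, by −1.89 and −3.69 on the log2 scale.

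SPRRNA.32 (chrII:1406385-1406824) had 159 and 167 reads in IP against 30 and 25 in input, a change of 2.81 (SE 0.269, adjusted p 0.00109). Its unit holds 200 nt before and 121 nt after the body, so reads of the flanks count in it. SPRRNA.07 (chrIII:2308122-2308319), on the strand of *agp3*, had 67 and 59 against 10 and 10 reads and a change of 2.85 (SE 0.243, adjusted p 0.000846). SPRRNA.38 (chrII:4210360-4210500), named after its values had been seen, had 47 and 48 against 4 and 1 reads and a change of 4.18 (SE 0.498, adjusted p 0.00190), the highest of the 5S units. All of these stood apart from input in both IP libraries.

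SPRRNA.37, SPRRNA.38, SPRRNA.07 and SPRRNA.32 are the copies with no TTTT within 15 nt of the body, where the first run starts at base 24, 33, 20 and 21. Their trailers, printed above, were set beside the values only after the values had been seen. The 4 copies had a median change of 2.83 (2.20 to 4.18) and a median IP level of 15.9 RPM. The 30 copies with an early run had a median change of 1.02 (−0.23 to 3.12) and a median IP level of 1.90 RPM, so the ranges overlapped. Over the 33 whole copies with a read, Spearman's rho of the start of the first run with the change was 0.17 and Pearson's r was 0.49. With the change by edgeR and TMM they were 0.08 and 0.28. The 3′ distance to a unique read had a higher rho with the change, 0.32 by limma and 0.54 by edgeR. The units of SPRRNA.37, SPRRNA.38, SPRRNA.07 and SPRRNA.32 also run 63, 21, 44 and 121 nt past the body, and the part of these longer windows in the result was not tested.

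**Figure D4:**
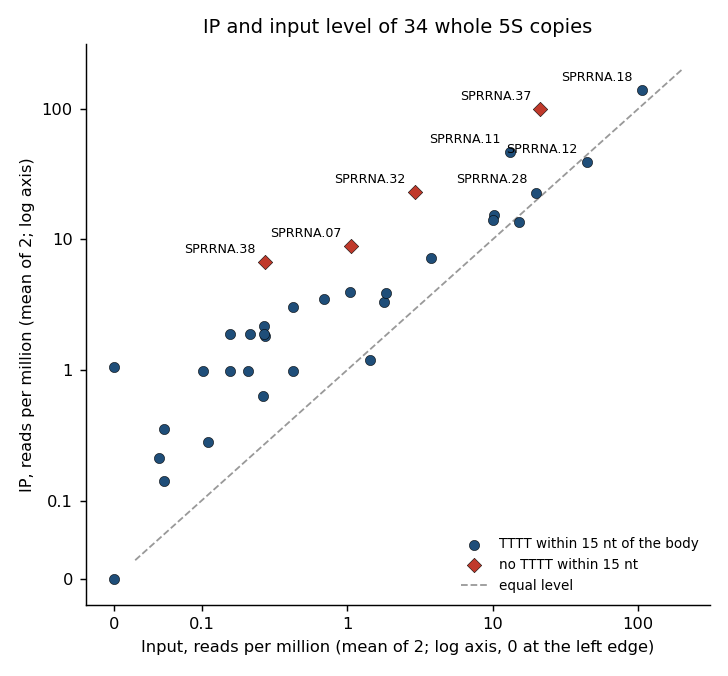
Mean RPM in IP against input for 34 whole 5S copies, both axes logarithmic with 0 at the edge. Red diamonds are the 4 copies with no TTTT within 15 nt of the body and the dashed line marks equal levels. The diamonds lie above the line with changes of 2.20 to 4.18, while SPRRNA.18, SPRRNA.12 and SPRRNA.28 lie near it.

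The remaining long 5S units had low counts. SPRRNA.29 (chrII:520254-520494) had 27 and 23 reads in IP against 7 and 6 in input, a change of 2.01 (adjusted p 0.00143). SPRRNA.31 (chrII:783253-783498) had 7 and 20 against 3 and 1, a change of 2.12 (adjusted p 0.0223) that ranged from 1.46 to 2.48 when a library was left out and was lost without either input library or without IP replicate 2. SPRRNA.03 (chrIII:1369974-1370202) had 13 and 14 against 3 and 2 and SPRRNA.04 (chrIII:1474219-1474427) had 12 and 15 against 1 and 2, with changes of 2.11 (adjusted p 0.00106) and 2.53 (adjusted p 0.000876). These calls stand on single-digit input counts.

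The 21 short 5S units outside the 10 short units with the highest mean level, SPRRNA.38, SPRRNA.14, SPRRNA.41 and SPRRNA.54 among them, had 0 to 48 reads in any library. Their median was 9 reads in IP and 2 in input, and the highest input count was 22. Of 20 with a read, 14 were higher in IP and 0 lower, where 92.8% of all units were higher and 0.92% lower. The changes of the 20 ran from −0.23 (SPRRNA.14) to 4.18 (SPRRNA.38). With the replicate number as a block 5 units changed their call. Then 23 of 35 5S units were higher and 0 lower, where 95% of all units were higher and 0.886% lower. The block added SPRRNA.10, with 2 and 1 reads in IP against 0 and 1 in input. It also added SPRRNA.13 (3 and 1 against 2 and 0) and SPRRNA.24 (9 and 5 against 5 and 3). Lost were SPRRNA.27 (25 and 22 against 16 and 18) and SPRRNA.33 (32 and 23 against 13 and 22), which have more reads.

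The rDNA units behaved differently from the dispersed genes. Of 11 units, 8 had no read in any library: the 18S units SPRRNA.42, SPRRNA.43, SPRRNA.44 and SPRRNA.45, the 5.8S units SPRRNA.50 and SPRRNA.51, and the 28S units SPRRNA.47 and SPRRNA.48. SPRRNA.42 to SPRRNA.44, SPRRNA.47, SPRRNA.48, SPRRNA.50 and SPRRNA.51 lie at the left end of chromosome III (from base 1 to base 23130), and SPRRNA.45 (chrIII:2451883-2452883) ends the right arm. Among them 0 read positions were unique when 2 mismatches were allowed, and SPRRNA.42 alone had any exact ones, 50 of 1390. Their 0 counts do not show that the genes were silent.

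All rDNA reads fell on the repeat copy nearest the unique sequence on the right arm. SPRRNA.52 (5.8S, chrIII:2443248-2443412) had 215 and 258 reads in IP against 31 and 39 in input, or 33.3 ± 4.22 against 3.69 ± 0.394 RPM (SD, n = 2). Both IP libraries lay far above input and the change was 3.11 (SE 0.319, adjusted p 0.00127). Of 214 read positions that touch it, 16 were unique within 2 mismatches.

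SPRRNA.46 (18S, chrIII:2440994-2442835) had 70 and 61 reads in IP against 28 and 48 in input, a change of 0.94 (SE 0.224, adjusted p 0.0166) that was no longer called without either IP library. SPRRNA.49 (28S, chrIII:2443713-2447197) had 154 and 160 against 69 and 143 reads, a change of 0.85 (SE 0.299, adjusted p 0.0509). With the replicate number as a block its adjusted p was 0.0400, against a background of 95% higher. Without input replicate 2 its change was 1.21 (adjusted p 0.00871). Neither SPRRNA.46 nor SPRRNA.49 holds a unique read position in the RefSeq sequence used here, so where their reads came from cannot be traced with it. After centring, SPRRNA.52 fell to −0.39, SPRRNA.46 to −2.56 and SPRRNA.49 to −2.65, so the direction against input flipped for these rDNA units.

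The genes that serve 5S and rDNA transcription are themselves RNAPII genes. Of 28 listed for RNAPIII and its factors 25 were found in the table and all 25 were higher in IP under the library totals, with a median change of 3.34. Of 13 listed for RNAPI 12 were found and 12 were higher (median 3.60), and of 7 listed for proteins that bind or load 5S rRNA 6 were found and 6 were higher (median 2.61). Beside these counts, 92.8% of all units and 4983 of 5068 protein-coding genes were higher. With edgeR and TMM, 4 genes of the RNAPIII list were higher and 4 lower, and 2 of the RNAPI list were higher and 2 lower. Of the 5S-binding group 0 were higher and 4 lower, where 14.7% of all units were called each way. The 5S copies thus had a lower median change than the genes listed for RNAPIII and its factors on both scales. The medians were 1.71 against 3.34 by limma and −1.89 against 0.095 by edgeR.

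*rpc1* and *rpc2*, which encode the catalytic core of RNAPIII, had 1359 and 1325 and 1055 and 1135 reads in IP, and 49 and 149 and 60 and 129 in input. Their changes were 3.78 (adjusted p 0.00145) and 3.59 (adjusted p 0.00102). *sfc2*, which encodes TFIIIA, the factor that binds inside the 5S gene, had 306 and 338 against 14 and 36 reads and a change of 3.45. *brf1*, a TFIIIB subunit, had 231 and 187 against 3 and 11 reads and a change of 3.28. *maf1*, a repressor of RNAPIII, had 172 and 189 against 2 and 11 reads and a change of 3.45. Every IP library stood above both inputs for these genes.

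*sla1*, encoding the La protein that binds the U-rich ends of RNAPIII transcripts, had 719 and 707 reads in IP against 77 and 161 in input, a change of 2.96. *nuc1*, the largest RNAPI subunit, had 2820 and 3055 against 240 and 564 reads and a change of 3.23, and *rrn3*, an RNAPI initiation factor, had 2111 and 2227 against 50 and 168 and a change of 4.61. The ribosomal protein genes *rpl502* (L5) and *rpl1101* (L11), whose products bind 5S rRNA, had 1205 and 1203 against 239 and 419 reads and 1565 and 1497 against 207 and 432. Their changes were 2.30 and 2.73. All 10 named genes passed the threshold by limma. Without either IP library *sla1*, *nuc1*, *rpl502* and *rpl1101* were no longer called, with adjusted p of 0.0518 to 0.0892. With edgeR *maf1*, *brf1* and *rrn3* were higher while *sla1*, *nuc1*, *rpl502* and *rpl1101* were lower.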

How the data were processed

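The authors sequenced 50-nt single-end reads, mapped them uniquely with Bowtie to ASM294v2 allowing 2 mismatches, and divided by the total of uniquely mapped reads. Bowtie's setting for reads with a better and a worse hit, and how a read touching several units was counted, are not given in the sources used here. The table deposited gives signal per unit and strand, as read counts normalized in this way. In each library 100.0% of them were whole multiples of the value of 1 read (tolerance 0.01 read), so whole reads were recovered. RPM and RPKM were put on a scale on which the smallest library has 7100000 reads, the lowest total that the study's methods state. The absolute level rests on that anchor, and ratios between libraries do not. Of 19343 rows, 10204 CDS rows and 28 repeated entries were left out.

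The 8912 units that had any read were tested by limma with a trend on log2(RPKM + 1), a scale that understates changes of low units, with Benjamini-Hochberg adjustment over all of them. The recovered reads were also tested with edgeR (quasi-likelihood) and with DESeq2. By the labels the inputs come from the same biological samples as the IPs, which pairs the replicate numbers. The replicate differences of IP and input correlated at r = 0.0593 over 8912 units and 0.142 over 35 5S units. Members and gene lists were chosen with earlier results of these data known. Values are given in full for all long units and for the 10 short units with the highest mean RPM. Read positions and bodies were searched in RefSeq ASM294v3, in which all 47 units have the coordinates of the table, on both strands. Other alternatives changed the pseudocount, the filter, the scaling, the libraries used, the length limit and the read length. The main limma, edgeR and DESeq2 fits and the search for unique read positions were tested on simulated data, edgeR without TMM. Centring, quantile normalization, the replicate block and the fits with a library left out were not tested in this way. Neither were the recovery of whole reads and the searches of bodies, distances and motifs. The simulated data held no general shift between IP and input, so they do not test the sign of the changes. The R packages (R 4.3.3) were DESeq2 1.42.0, edgeR 4.0.16 and limma 3.58.1, and the rest ran in Python 3.11.15 with scipy 1.17.1, pandas 2.3.3 and numpy 2.4.6.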

Additional observations from a re-analysis of the deposited data

How the results depend on the processing

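In all 555 values were recomputed, 37 of them under alternatives chosen after seeing the data. Changes of pseudocount or filter, the replicate block and edgeR with the library totals of the authors kept 0 rRNA units lower in IP and 13 to 19 short and 7 to 8 long units higher. The pseudocount moved the median change of the short units from 1.10 to 1.89 (0.1 RPKM) or 0.58 (10 RPKM), and a length limit of 400 nt moved it to 1.71.

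Other scalings turned the direction. Centring on protein-coding genes gave 819 higher and 4859 lower units, with 0 short and 0 long rRNA units higher and 27 short and 8 long lower. The short units lower after centring include copies with almost no reads, such as SPRRNA.55. Quantile normalization gave 916 and 703, with 1 short and 0 long higher and 15 short and 3 long lower. edgeR with TMM gave 1312 and 1312, with 0 and 0 higher and 16 short and 5 long lower. With the replicate block edgeR gave 1449 and 1401, with 0 and 0 higher and 15 short and 5 long lower. DESeq2 gave 722 and 1135, with 0 and 0 higher and 16 short and 5 long lower. The median change of the short units was then −2.40, −1.28, −2.31, −2.48 and −2.60 in that order.

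Named units whose direction turned are given with their log2 change in the same order of scalings. SPRRNA.29 (−1.49, −1.45, −1.67, −1.73 and −1.81), SPRRNA.31 (−1.39, −0.91, −0.85, −0.75 and −1.07), SPRRNA.32 (−0.70, −0.69, −1.07, −1.07 and −1.24) and SPRRNA.03 (−1.39, −1.10, −1.17, −1.19 and −1.32) were then below 0. SPRRNA.04 (−0.97, −0.59, −0.42, −0.37 and −0.49), SPRRNA.46 (−2.56, −2.06, −2.82, −2.84 and −2.90), SPRRNA.49 (−2.65, −2.24, −3.03, −3.02 and −3.09) and SPRRNA.18 (−3.09, −0.11, −3.69, −3.68 and −3.75) were then below 0. SPRRNA.28 (−3.32, −1.85, −3.89, −3.91 and −3.98), SPRRNA.53 (−2.92, −1.91, −3.48, −3.51 and −3.63), SPRRNA.15 (−3.02, −2.26, −3.57, −3.60 and −3.70) and SPRRNA.20 (−2.63, −2.16, −3.12, −3.21 and −3.27) were then below 0. SPRRNA.07 (−0.66, −0.68, −0.96, −0.99 and −1.08), sla1 (−0.54, −0.37, −1.01, −1.01 and −1.07), nuc1 (−0.28, −0.21, −0.70, −0.69 and −0.76) and rpl502 (−1.20, −0.43, −1.75, −1.75 and −1.82) were then below 0. After centring, edgeR, edgeR with the block and DESeq2, values were also below 0 for SPRRNA.37 (−1.30, −1.89, −1.88 and −1.99), SPRRNA.11 (−1.71, −2.25, −2.29 and −2.37), SPRRNA.52 (−0.39, −0.86, −0.84 and −0.97) and rpl1101 (−0.77, −1.33, −1.33 and −1.39). Those of rpc2 were −0.013, −0.056, −0.042 and −0.11 under quantile normalization, edgeR, edgeR with the block and DESeq2. That of sfc2 was −0.052 and −0.051 after centring and quantile normalization, and centring took brf1 to −0.23 and maf1 to −0.053. SPRRNA.38 kept its direction under every scaling (0.68, 0.57, 0.63, 0.62 and 0.45), without passing the threshold. Without 1 library the change of SPRRNA.28 ranged from −0.074 (without IP replicate 1) to 0.44, and SPRRNA.35 from −0.39 (without input replicate 1, adjusted p 0.0216) to 0.12 (without input replicate 2). Both turned values missed the threshold.

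Leaving out 1 library at a time gave 7589 to 7747 units higher and 43 to 116 lower, 7 to 18 short and 4 to 7 long rRNA units higher, and 0 to 1 short and 0 long lower. The lone library left in a group was taken to vary like the other group. The replicate block changed the call of 5 5S units and of SPRRNA.49, and of no other rRNA unit.

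Short units without a read numbered 3, but 7 when up to 3 reads counted as none and 1 under a limit of 150 nt. A short unit was touched by a median of 92 unique read positions within 2 mismatches, by 44 with 30-nt reads and by 0 with reads wholly inside it. Low counts limit the input side: 15 and 19 of 36 5S units had at most 3 reads in the input libraries, against 5 and 5 in IP.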

Other observations

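The 2 mitochondrial rRNA units that share the naming of the nuclear genes had far more uniquely mapped reads than any of them, which does not compare the amounts of RNA. In IP replicates 1 and 2, SPRRNA.01 had 32501 and 35434 reads, against 16084 and 30348 in the inputs. For SPRRNA.02 the IP counts were 27801 and 29700 and the input counts 41391 and 37986. Together they took 0.882% ± 0.0465 (SD, n = 2) of the IP total and 0.664% ± 0.0444 (SD, n = 2) of the input total.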
